A study of Mus musculus with 2 samples.

Results

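H19 and 9 other imprinted genes were followed across individual myofibers from the FDB (flexor digitorum brevis), which flexes the toes of the mouse and consists mostly of fast fibers. The 10 genes, taken by symbol, were H19, Igf2, Meg3, Rian, Mirg, Dlk1, Cdkn1c, Peg3, Plagl1 and Grb10. All 10 had a row among the 35163 gene rows of the deposited table. The muscle came from 1 untreated C57BL/6J mouse older than 3 months, so every cell below belongs to 1 biological sample, and no group differed in genotype or treatment. Myofibers from a large-particle sorter and fragments cut from the muscle filled 8 plates, sequenced on 2 lanes by mcSCRB-seq. That method tags each RNA molecule so that copies made in amplification are counted once. The sorter gates took long and short particles, and the authors describe the short ones as apparent fragments. Of 763 cells, 171 had over 5000 genes detected and under 20% mitochondrial counts. Each was classed by the largest of its Myh1, Myh2, Myh4, Myh7 and Myh8 counts, the heavy chains of the 2X, 2A, 2B, slow and neonatal myosins. This gave 117 fast 2X cells, 51 fast 2A cells, 2 slow cells and 1 fast 2B cell, with 39180010 summed counts in fast 2X and 11907400 in fast 2A. No column name occurred in 2 cells. Of the 171 cells, 3 were labeled as fragments, and lanes 1 and 2 held 88 and 83 of the 171. The 5 myofiber markers (Ttn, Acta1, Ckm, Neb and Ryr1) summed to at least 20384 CPM (counts per 1000000 counts) in every one of the 171 cells.

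Imprinted genes are transcribed mainly from the copy inherited from one parent, under the control of regions that carry different DNA methylation on the maternal and paternal chromosomes. H19, a long noncoding RNA, and Igf2, a growth factor, lie side by side and compete for shared enhancers, H19 being active on the maternal copy and Igf2 on the paternal one. Dlk1, a Notch-related membrane protein, and the noncoding RNAs Meg3, Rian and Mirg form another imprinted cluster. Cdkn1c encodes a cell cycle inhibitor (p57), Grb10 an adaptor that dampens insulin and IGF receptor signaling, and Peg3 and Plagl1 zinc finger proteins. H19, Igf2 and several of the others are abundant in fetal muscle and fall after birth. The mouse was of an inbred strain, so counts cannot be assigned to a parental copy, and the values below are total levels.

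H19 lies on the minus strand at chr7:142575529-142578143 (GRCm38, GENCODE annotation) and is the host of miR-675, whose hairpin sits at chr7:142577064-142577147, in exon 1 or exon 2 of the annotated H19 transcripts that contain it. The hairpin is shown because it is the small RNA product of the gene on which most of the results turn. In the hairpin line capitals mark both mature arms, and in the arm lines they mark the seed, bases 2 to 8. The sequences are from RefSeq (GRCm38.p6) and are written 5′ to 3′.
Mir675 hairpin: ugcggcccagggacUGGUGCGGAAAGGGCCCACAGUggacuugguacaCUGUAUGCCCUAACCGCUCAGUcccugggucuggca
mmu-miR-675-5p: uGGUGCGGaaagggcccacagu
mmu-miR-675-3p: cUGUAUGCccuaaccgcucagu
The arms have different seeds and lie at chr7:142577112-142577133 and chr7:142577078-142577099. The count table had no row for Mir675, so the values below are for the long H19 transcript and say nothing of the microRNA. It also had no row for any RefSeq microRNA gene within Meg3, Rian or Mirg.

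H19 supplied most of the counts of the group. Of 14790 counts of the 10 genes in the 171 cells, 11017 (74.5%) were H19, and the 10 genes together made up 0.0285% of all counts. H19 reached 212 CPM (95% limits 208 to 216) and was rank 563 among all genes. The limits here are exact Poisson limits, and all limits cover counting error only, not differences between animals. Limits on CPM and on ratios also leave out the spread between cells, which was larger than counting error. Over the 171 cells the chi-square per degree of freedom was 34.3 for H19, 9.30 for Cdkn1c, 15.1 for Igf2 and 2.00 for Mirg. These limits are therefore narrower than the spread of the cells would give. The other 9 genes lay between 14.7 CPM for Meg3 and 1.17 CPM for Mirg. Divided by the annotated exonic length, the level was 86.3 CPM per kb for H19, 5.98 for Cdkn1c, 1.51 for Grb10, 1.24 for Igf2, 0.81 for Meg3, 0.77 for Peg3, 0.49 for Plagl1, 0.41 for both Dlk1 and Rian, and 0.16 for Mirg. This method reads mainly the 3′ end of a transcript, so division by length favors short genes such as H19, and the order of the genes depends on the scale. For background, 930 olfactory receptor rows, genes that muscle should lack, had a median of 0.0286 CPM per kb and a 90th percentile of 0.207. Mirg lay below that percentile and the other 9 genes above it. The place of Mirg and Plagl1 changed with the scale: undivided, the 61 counts of Mirg exceeded the 90th percentile of 35 counts, whereas per kb of gene span Mirg (3.10 counts) and Plagl1 (2.80 counts) both lay under the 90th percentile of 4.81.

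H19 was higher in fast 2A than in fast 2X myofibers. Over the 51 fast 2A cells it ranged from 55.4 CPM through a median of 423 to 1469, and over the 117 fast 2X cells from 0 through 152 to 868. The classes overlapped in their tails: 3 of 117 fast 2X cells exceeded the fast 2A median, and 1 of 51 fast 2A cells lay below the fast 2X median. Of all pairs of 1 fast 2A and 1 fast 2X cell, the fast 2A cell was higher in 92.4%. From the summed counts, H19 stood at 412 CPM (401 to 424) in fast 2A against 153 CPM (150 to 157) in fast 2X. The ratio was 2.69-fold (exact conditional limits 2.59 to 2.79), a log2 ratio of 1.43 (1.37 to 1.48). With a single mouse no test across animals was possible, and this is a description of these cells.

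**Figure D1:**
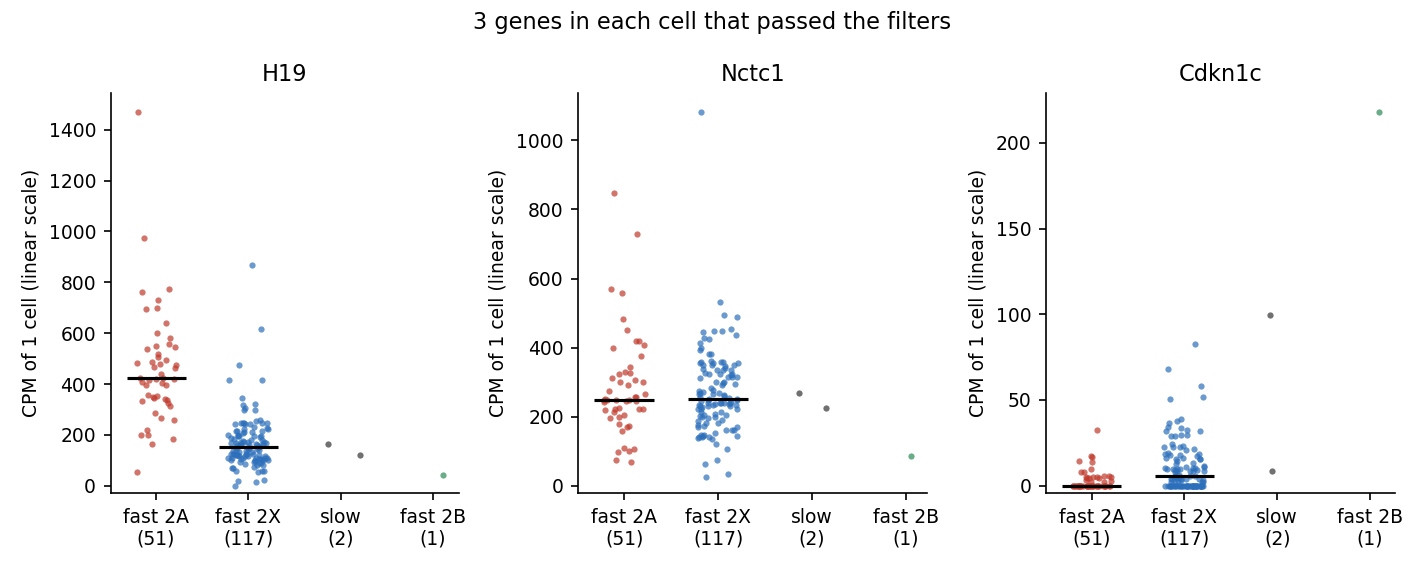
CPM of H19, Nctc1 and Cdkn1c in each of the 171 cells (y axes, linear, a separate scale for each gene) by fiber class (x axis, number of cells in parentheses), with 1 point per cell and a bar at the median of the fast classes. The H19 medians are 423 CPM in fast 2A and 152 CPM in fast 2X, those of Nctc1 are 248 and 252 CPM, and those of Cdkn1c are 0 and 5.39 CPM.

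Ranked among the 8649 genes with at least 500 counts over both classes, leaving out the 5 class-defining Myh genes, H19 was number 33 from the top. Of these genes 67, or 0.775%, were at least 2-fold higher in fast 2A, 150 (1.73%) were at least 2-fold lower, and the median log2 ratio was -0.09. Of the 10 imprinted genes 5 had 500 counts (H19, Meg3, Grb10, Cdkn1c and Peg3). H19 was past 2-fold upward and Cdkn1c was past 2-fold downward, 2 genes of 5 against 2.51% of all genes in either direction. The 10 genes were picked with results from these cells known, so this count is not independent evidence about imprinted genes.

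**Figure D2:**
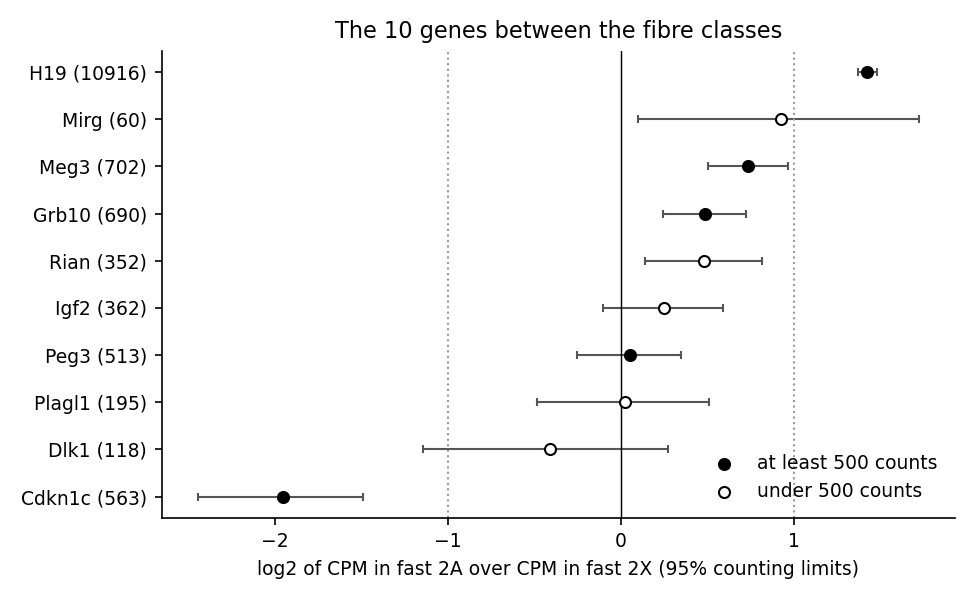
Log2 ratio of CPM in fast 2A over fast 2X (x axis) for each of the 10 genes (y axis, summed counts of both classes in parentheses), with bars for the 95% counting limits and dotted lines at 2-fold. H19 at 1.43 and Cdkn1c at -1.95 lie beyond the dotted lines with their limits, and the other 8 lie between -0.41 and 0.93.

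Many cells carried both Myh1 and Myh2, so H19 was also set against the Myh2 share, the counts of Myh2 as a percent of Myh1 and Myh2 together. In the 48 cells with a share under 20%, H19 stood at 140 CPM (135 to 145). It was 165 CPM (159 to 172) in 59 cells from 20 to 40%, and 245 CPM (229 to 262) in 16 cells from 40 to 60%. Above that it reached 422 CPM (407 to 439) in 29 cells from 60 to 80% and 441 CPM (420 to 462) in 16 cells from 80 to 100%. The largest step lay between the 40 to 60% and the 60 to 80% bins, and the limits of the upper 2 bins overlapped. On either side of equality, the 10 fast 2X cells with a share of 40 to 50% held 209 CPM (189 to 230) and the 6 fast 2A cells with 50 to 60% held 292 CPM (265 to 320). The classes were thus closer there than over all cells, and both lay between the class levels.

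**Figure D3:**
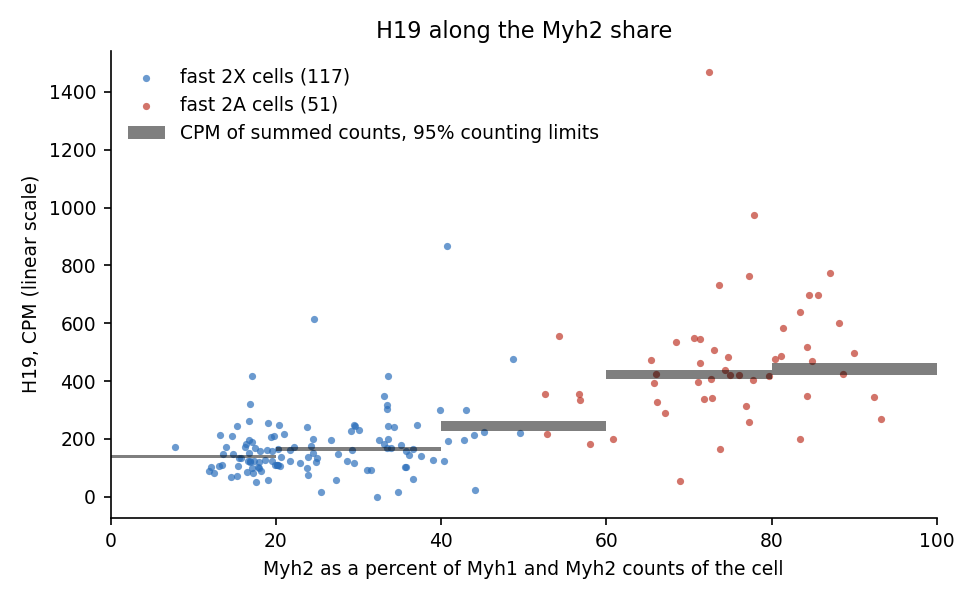
H19 in CPM (y axis, linear) against Myh2 as a percent of Myh1 and Myh2 counts (x axis), 1 point per fast 2X (blue) or fast 2A (red) cell, with gray bands for the 95% counting limits of the summed counts in 5 bins. The bands rise from 140 CPM in the lowest bin to 441 CPM in the highest, and single cells scatter widely around them.

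Across the 168 fast cells Spearman's rho of H19 with the Myh2 share was 0.66. It was 0.26 within the 117 fast 2X cells and 0.33 within the 51 fast 2A cells. The cells share a mouse and differ in depth, and H19 had a rho of -0.20 with total counts. Among the heavy chains themselves, taken as shares of all 5 in the 171 cells, H19 had a rho of 0.66 with Myh2, 0.62 with Myh4, 0.30 with Myh7, -0.43 with Myh8 and -0.63 with Myh1. Shares of a whole are not independent of each other. Within fast 2X and within fast 2A cells the values were 0.25 and 0.38 for Myh2, 0.22 and 0.39 for Myh4, and -0.29 and -0.30 for Myh1. For Myh7 they were 0.15 and -0.13 and for Myh8 0.01 and -0.07, so the values of these 2 over all cells were not seen within the classes.

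The H19 difference had the same direction on all 8 plates, and the lower counting limit was above 0 on each. The log2 ratio ranged from 0.48 on plate 710, which held 2 fast 2A cells, to 1.73 on plate 706. On plate 711 it was 0.77, from 394 CPM over 10 fast 2A cells and 231 CPM over 15 fast 2X cells, the latter being the highest fast 2X level of any plate. The other 5 plates lay between 1.47 and 1.60. By lane it was 1.57 on lane 1 and 1.31 on lane 2. The plates shared the animal and the preparation, so they repeat the measurement and not the experiment.

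**Figure D4:**
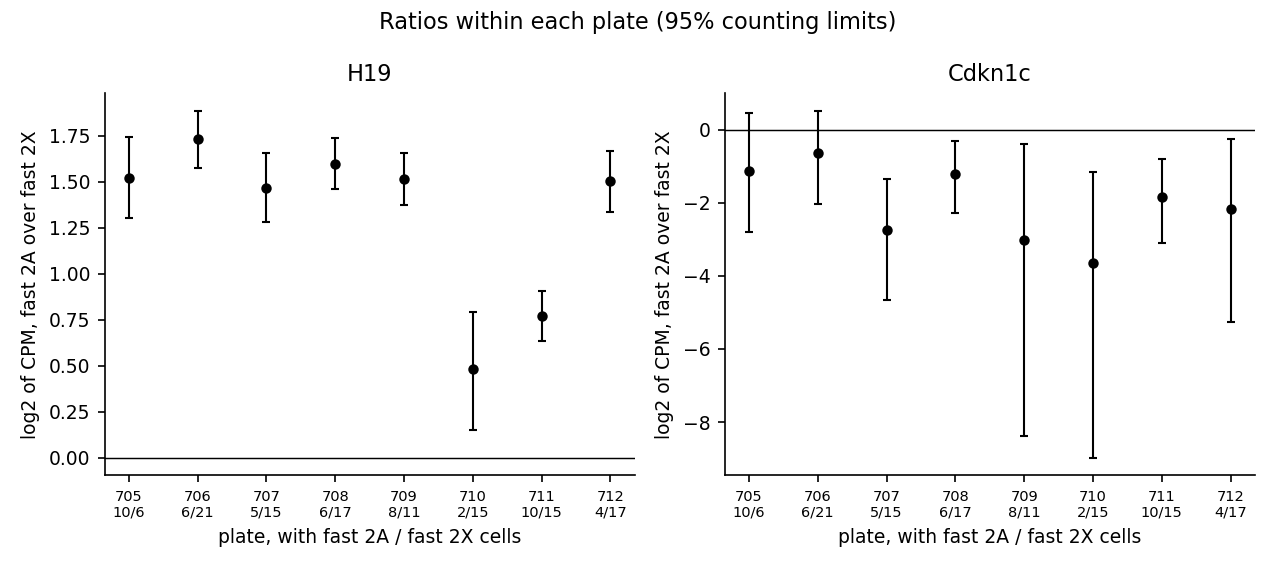
Log2 ratio of CPM in fast 2A over fast 2X (y axes) for H19 and Cdkn1c within each of the 8 plates (x axes, with the number of fast 2A and fast 2X cells), bars being 95% counting limits. All H19 ratios are above 0 (0.48 to 1.73), and all Cdkn1c ratios are below 0 (-0.65 to -3.66), with limits that reach past 0 on plates 705 and 706.

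Cells outside the filters gave another look at the same genes. Of the cells that failed only the mitochondrial maximum, 17 were fast 2A and 89 fast 2X by the same class rule. H19 stood at 168 CPM (145 to 193) in the former and 75.6 CPM (69.0 to 82.6) in the latter, a log2 ratio of 1.15 (0.90 to 1.39). These levels are lower than in the filtered cells in part by construction, since mitochondrial RNA filled a median of 34.5% and 41.9% of the counts. The ratio of 1.15 uses total counts, and the mitochondrial share differed between the classes. Scaled to non-mitochondrial counts alone, H19 was 275 CPM (238 to 316) in fast 2A and 150 CPM (137 to 164) in fast 2X. In the filtered cells it was 446 CPM (434 to 459) and 162 CPM (158 to 166) on that scale. H19 was thus lower in the fast 2A cells that failed, while the fast 2X limits overlapped. Over all 592 cells left out it was 184 CPM on that scale, compared with 226 CPM in the 171 cells.

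H19 stood apart from the genes around it. Nctc1, a noncoding RNA gene that starts 19.5 kb downstream of the H19 start, was as abundant as H19 per exonic kb (81.3 CPM per kb). It ranged from 67.3 through 248 to 848 CPM in the fast 2A class and from 25.4 through 252 to 1083 CPM in the fast 2X class. The ranges overlapped widely, and the summed levels of 278 CPM and 282 CPM gave a log2 ratio of -0.02 (-0.07 to 0.04). Nctc1 was higher in fast 2A on 4 plates and lower on 4. Mrpl23, a mitochondrial ribosomal protein gene, had a log2 ratio of 0.02 (-0.14 to 0.18), and Tnnt3 and Tnni2, the fast skeletal troponins T and I, had -0.18 and -0.20 with 590788 and 357856 counts. The 8 genes within 250 kb that had 500 counts lay between -0.38 for Prr33 and 0.02. These neighbors were chosen by distance after the H19 values were known.

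**Figure D5:**
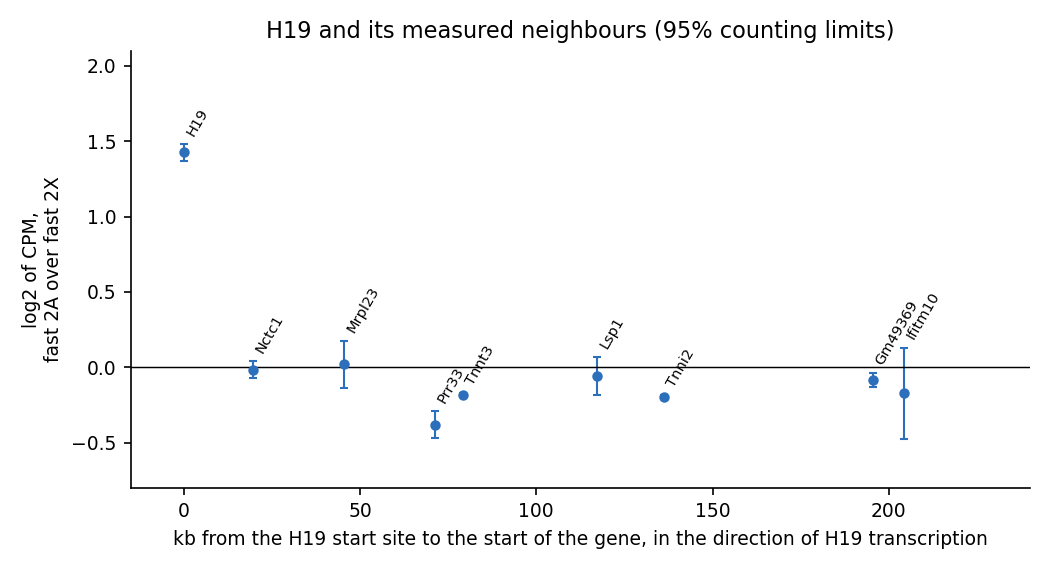
Log2 ratio of CPM in fast 2A over fast 2X (y axis, 95% counting limits) against the distance in kb from the H19 start to the start of each measured gene, in the direction of H19 transcription (x axis). H19 is at 1.43 and its 8 neighbors are between -0.38 and 0.02.

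Igf2, the partner gene of H19, was sparse. It was counted in 99 of 171 cells, with 369 counts in all, and 16 cells held at least 50% of them. Over fast 2A cells it ranged from 0 through 2.18 to 143 CPM, and over fast 2X cells from 0 through 2.501 to 355 CPM. The summed level was 8.06 CPM (6.53 to 9.85) in fast 2A and 6.79 CPM (6.00 to 7.66) in fast 2X, and the limits of the log2 ratio (0.25, -0.10 to 0.59) included 0. The antisense gene Igf2os overlaps Igf2, and whether the counting used strand is not given in the sources used here. Igf2 was higher in fast 2A on 4 plates and lower on 4, unlike H19, and both slow cells had a count of 0, which allows up to 6.37 CPM.

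Cdkn1c, the cell cycle inhibitor, had the opposite pattern to H19. Over fast 2A cells it ranged from 0 through a median of 0 to 32.7 CPM, and over fast 2X cells from 0 through 5.39 to 82.7 CPM. A count was seen in 21 of 51 fast 2A cells and in 76 of 117 fast 2X cells. The zeros overlap, and the upper ranges differ. The summed level was 3.44 CPM (2.47 to 4.67, 41 counts) in fast 2A and 13.3 CPM (12.2 to 14.5, 522 counts) in fast 2X, a log2 ratio of -1.95 (-2.45 to -1.49), 3.87-fold lower in fast 2A. This was number 11 from the bottom of the 8649 genes. Cdkn1c was lower in fast 2A on 8 of 8 plates, with the upper limit below 0 on 6.

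Depth moved with Cdkn1c, and fast 2A cells were shallower, with a median of 206510 counts against 255726. In the 168 fast cells its CPM had a rho of 0.43 with total counts. Among cells below the median depth of 239581 counts the log2 ratio was -2.19 (-3.31 to -1.23), and among the deeper cells it was -1.85 (-2.43 to -1.33), with limits below 0 in both. In the 106 fast cells that failed only the mitochondrial maximum the classes did not differ beyond counting error, at 22.3 CPM (14.5 to 32.6) in fast 2A and 18.97 CPM (15.8 to 22.6) in fast 2X, a log2 ratio of 0.23 (-0.44 to 0.85). The limits of that ratio and of the ratio in the filtered cells did not overlap. Scaled to non-mitochondrial counts, Cdkn1c in the cells that failed was 36.4 CPM (23.8 to 53.4) in fast 2A. In fast 2X it was 37.7 CPM (31.3 to 45.0), so the order of the classes changed with the scale. In the filtered cells the levels on that scale were 3.73 CPM and 14.1 CPM. The sets also differ in mitochondrial share and depth, with median totals of 50558 and 54364 counts in the fast 2A and fast 2X cells that failed, and the part of each was not tested.

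Summed markers of some other cells also differed between the classes, while the medians over cells were closer. The 4 pericyte and smooth muscle markers, all detected, summed to 24.7 CPM in fast 2A (cells from 0 to 517) and 45.7 CPM in fast 2X (0 to 9265). The 4 Schwann cell markers, all detected, summed to 13.7 CPM (0 to 388) and 23.9 CPM (0 to 3032), while the 5 tenocyte markers summed to 54.8 CPM (0 to 332) and 38.7 CPM (0 to 349). Medians over fast 2A and fast 2X cells were 21.8 and 20.7 CPM for pericyte markers, 8.30 and 9.77 for Schwann, and 37.4 and 33.0 for tenocyte. Of the tenocyte markers, Scx, Fmod and Thbs4 were higher in fast 2A, and Mkx (3.78 against 8.83 CPM) and Tnmd were lower. Per cell, Cdkn1c had a rho of 0.05 with the pericyte sum, 0.11 with the Schwann sum and 0.02 with the tenocyte sum, and H19 had -0.10, -0.21 and 0.02. Their part in the H19 and Cdkn1c differences was not tested. With the tenth of cells highest in the 6 fibroblast markers left out, the log2 ratios were 1.39 for H19 and -1.82 for Cdkn1c.

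The Meg3 cluster was less steady between the classes. Meg3 ranged from 0 through 8.39 to 222 CPM over fast 2A cells and from 0 through 8.04 to 199 CPM over fast 2X cells. The medians were alike, and the sums were 19.8 CPM (17.4 to 22.5) and 11.9 CPM (10.8 to 13.02), a log2 ratio of 0.74 (0.50 to 0.97). The mean over cells of CPM, which gives each cell equal weight, had a log2 ratio of 0.20, and 16 cells held at least 50% of the 761 counts. It was higher in fast 2A on 6 plates and lower on 2. Among shallower cells the ratio was -0.37 (-0.87 to 0.11) and among deeper cells 1.05 (0.79 to 1.31), so no single direction described Meg3. Rian, a host of small nucleolar RNAs and microRNAs, had a log2 ratio of 0.48 (0.14 to 0.82) that was 0.09 (-0.32 to 0.48) without its highest cell in each class. Its ratio was -1.63 (-2.77 to -0.64) among shallower cells and 0.95 (0.58 to 1.31) among deeper ones. Of its 384 counts, at least 50% lay in 12 cells and 34 in 1 fast 2A cell. Single cells therefore weigh on these ratios, and the part of depth was not tested. Mirg, a microRNA host, had 60 counts and a log2 ratio of 0.93 (0.10 to 1.72). Dlk1 had 118 counts and a log2 ratio of -0.41 (-1.15 to 0.27). Meg3 and Rian had the highest rho of any pair of the 10 genes over the 171 cells, at 0.23, which in counts this sparse says little.

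Grb10, the receptor adaptor, was seen in 123 of 171 cells and ranged from 0 through 10.1 to 87.4 CPM in fast 2A and from 0 through 7.34 to 209 CPM in fast 2X. Its sums were 17.3 CPM (15.0 to 19.8) and 12.4 CPM (11.3 to 13.5), a log2 ratio of 0.49 (0.24 to 0.72), higher in fast 2A on 7 of 8 plates and with the lower limit above 0 on 2 of them. Among shallower cells the ratio was 0.01 (-0.48 to 0.48), the mean over cells gave 0.05, and in the cells that failed only the mitochondrial maximum it was turned, at -0.91 (-1.75 to -0.17). Peg3 stood at 10.3 CPM (8.59 to 12.3) in fast 2A and 9.95 CPM (8.99 to 10.99) in fast 2X, with ratios above 0 on 4 plates and below 0 on 4. Plagl1 stood at 3.86 CPM (2.83 to 5.15) and 3.803 CPM (3.22 to 4.46). The class sums of Peg3 and Plagl1 did not differ beyond counting error over all filtered cells. For Plagl1 the ratio was -2.30 (-3.49 to -1.30) among shallower cells and 0.96 (0.35 to 1.55) among deeper ones. Its chi-square per degree of freedom over the 171 cells was 12.5, and its median was 0 in both classes. Shallower fast 2X cells reached 214, 129 and 76.1 CPM, and 1 deeper fast 2A cell held 13 of the 46 fast 2A counts. Single cells therefore weigh on both Plagl1 ratios, and the part of depth was not tested. For Peg3 the ratio was 1.19 (0.33 to 1.99) in the cells that failed only the mitochondrial maximum. There the 19 fast 2A counts lay in 5 of 17 cells, with 8 in 1 cell, and both class medians were 0. Scaled to non-mitochondrial counts, Peg3 in those cells was 26.6 CPM (16.0 to 41.6) in fast 2A and 14.2 CPM (10.4 to 18.9) in fast 2X.

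The rarer classes rested on 3 cells. The slow cells held 163 CPM (129 to 203) and 119 CPM (61.6 to 208) of H19, near the fast 2X level and below the fast 2A median. Their Cdkn1c was 8.35 CPM (4 counts) and 99.4 CPM (10 counts). The 1 fast 2B cell had the lowest H19 level of the 4 classes, 42.8 CPM (21.4 to 76.6). It also had the highest Cdkn1c of the 171 cells, at 218 CPM (56 counts), with 218 CPM of Meg3 (56 counts), 117 CPM of Rian (30 counts) and 66.1 CPM of Peg3 (17 counts). This cell was unlike the other myofibers. All 6 fibroblast markers were present in it at a sum of 2404 CPM, rank 2 of 171 cells, against a median of 24.9 CPM. Its 4 Schwann cell markers summed to 607 CPM, also rank 2, and its 5 myofiber markers to 36534 CPM, rank 164. Its imprinted gene levels therefore cannot be told apart from RNA of other cells. In the 5 fast 2B cells that failed only the mitochondrial maximum, Cdkn1c had 1 count (3.32 CPM), while Meg3 stood at 53.2 CPM (30.4 to 86.4) and H19 at 39.9 CPM (20.6 to 69.7).

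The genes whose pattern over the 171 cells was most like that of H19 were sought among 4136 genes with a count in at least 90% of the cells and at least 500 counts. Spearman's rho of per-cell CPM with H19 was 0.74 for Ldhb, the heart-type lactate dehydrogenase subunit, 0.70 for Tnni1, the slow troponin I, 0.67 for Gm13599 and for Actn2, an alpha-actinin of the Z-disc, and 0.66 for Myoz2, a Z-disc protein. Within fast 2X cells alone Ldhb and Tnni1 were still number 1 and 2, at 0.52 and 0.47. Within fast 2A cells the values were lower, at 0.28 for Ldhb, 0.18 for Tnni1, 0.20 for Gm13599, 0.35 for Actn2 and 0.25 for Myoz2. The lowest values were -0.55 for Cntnap2, a neurexin-family adhesion protein, -0.52 for Maf, a transcription factor, -0.51 for Itpr1, an inositol trisphosphate receptor, and for Lrmda, and -0.49 for Xpr1, a phosphate exporter. Of the 10 imprinted genes, Cdkn1c had the lowest rho with H19, at -0.36. The cells share a mouse, and class and depth enter all of these values.

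Beyond the 10 genes, 60 imprinted or neighboring genes were listed, the 10 included, and 54 had a row. Of these, 24 had 500 counts, and H19 and Cdkn1c were the 2 past 2-fold, against 2.51% of all 8649 genes. Both belong to the 10 genes, which were picked with results from these cells known. No tested gene of the wider list outside the 10 was past 2-fold, so the wider list adds no independent evidence. The median log2 ratio of the 24 was -0.04, compared with -0.09 over all genes. The 10 with the most counts in the 171 cells were Zrsr1 (724 CPM), Nctc1, H19, Nap1l4, Igf2r, Trappc9, Cd81, Airn, Ube3a and Gnas (70.4 CPM). Zrsr1 lies within Commd1 and Airn overlaps Igf2r, so their counts are uncertain. Apart from H19, the log2 ratios of these 10 ran from -0.52 for Cd81, a tetraspanin, to 0.16 for Airn, an antisense noncoding RNA. Of the genes within 250 kb of Cdkn1c that had 500 counts, Nap1l4 had 0.06 (-0.01 to 0.14) and Cars -0.47 (-0.66 to -0.28). Kcnq1ot1, the noncoding RNA of that imprinted cluster, had -0.26 (-0.41 to -0.11).

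None of the 9 tested genes of the IGF axis was past 2-fold, a share that 9 genes cannot tell from the 2.51% over all genes. The receptors stood at similar levels in fast 2A and fast 2X: Igf1r at 165 and 145 CPM, Igf2r, the receptor that clears IGF2, at 164 and 149 CPM, and Insr, the insulin receptor, at 104 and 89.8 CPM. The most abundant binding protein listed, Igfbp5, stood at 332 and 402 CPM, a log2 ratio of -0.28 (-0.33 to -0.22). Of 6 tested denervation and early muscle genes, a list chosen with earlier results known, 1 was past 2-fold, against 2.51% of all genes. This was Myh3, the embryonic myosin heavy chain. It stood at 77.0 CPM (72.1 to 82.2) in fast 2A and 15.5 CPM (14.3 to 16.7) in fast 2X, a log2 ratio of 2.32. Reads shared between Myh genes could affect it. Myod1, a myogenic transcription factor, had -0.94, just under 2-fold. Chrna1, also listed as a neuromuscular junction marker, had -0.31 (-0.39 to -0.22), and Runx1, a factor induced by denervation, 0.34 (0.25 to 0.44). Of the 6 genes, 4 were higher in fast 2A and 2 lower.

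Most of the 10 genes were missed in many cells at a common depth. With each cell thinned to the 28827 counts of the shallowest one, H19 remained in 162 of 171 cells (94.7%, Clopper-Pearson limits 90.2 to 97.6), Meg3 in 62, Grb10 in 48, Peg3 in 41, Igf2 in 35, Cdkn1c in 32, Rian in 24, Dlk1 in 14, Plagl1 in 12 and Mirg in 9. Before thinning, the shares of cells with a count ran from 99.4% for H19 to 23.4% for Mirg. After thinning H19 was still seen in 51 of 51 fast 2A and 109 of 117 fast 2X cells, and Cdkn1c in 5 of 51 (9.80%, limits 3.26 to 21.4) and 25 of 117 (21.4%, 14.3 to 29.9), so the Cdkn1c shares overlapped in their limits at that depth.

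Promoter windows of 250 bases before to 50 after the start were found for 8 of the 10 genes in RefSeq (13 windows, GRCm38.p6). H19 and Cdkn1c were not among them and were not searched. The E-box CANNTG, searched on both strands, was in 7 of 13 against 72.3% of 32851 promoters. CTA and TAG with any 4 bases between them, a looser pattern than the MEF2 site, was in 1 (Grb10) against 3.69%. GGGGCCCC, the core bound by Plagl1, was in 1 (Peg3) against 1.08%. These matches are descriptions of letters and not of binding.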

How the data were processed

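Single myofibers from the 2 GEO samples, which are lanes of 1 mouse, were analysed as 1 sample. Per the labels and methods, the authors mapped reads to GRCm38 (mm10) with STAR 2.5.4b and counted them with zUMIs at default settings, and the deposited table, which mixes 10 description rows with the gene rows, holds other values in the former and whole-number UMI counts of 35163 genes in 763 cells in the latter, not normalized. Which zUMIs count table (exons alone or with introns) was deposited, and its strand setting, are not spelled out in the sources used here. Because of the description rows the unit was not recorded as counts, so TMM scaling was coded directly and no count package was used.

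Cells with over 5000 genes and under 20% mitochondrial counts were kept, and depth ranged from 28827 to 1542996 counts per cell. Counts were summed per class and scaled to CPM. Poisson limits on CPM, conditional binomial limits on ratios and Clopper-Pearson limits on shares (scipy 1.17.1) are exact at 95%, and the code was tested on simulated data. A ratio was called past 2-fold with at least 500 counts over both classes. No p-value was computed, since cells of 1 mouse are not replicates. The lane numbers mark sequencing lanes, and doublets were not removed by software.

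Genes named were the 10 members, list genes with 500 counts past 2-fold, the 10 listed imprinted genes with most counts, and the 5 highest and 5 lowest in likeness to H19. Igf2os, Mrpl23, Tnnt3, Tnni2, Prr33, Kcnq1ot1, Cars, the IGF receptors, Igfbp5, Myod1, Chrna1 and Runx1 were named after their values were seen. So were Scx, Fmod, Thbs4, Mkx and Tnmd as single genes, and Phlda2 and Ascl2. The members and lists were chosen with earlier results of these data known. The olfactory receptor background, the split by median depth and the split on fibroblast markers were added after seeing the data. Alternatives were other scalings, summaries over cells, class rules, filters, thinning, lanes and plates.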

Additional observations from a re-analysis of the deposited data

How the results depend on the processing

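No paired analysis was possible because the 2 numbered samples are lanes of the same mouse and group. The H19 log2 ratio was above 0 under all 24 alternatives, from 0.48 to 1.73. Those outside its counting limits were 1.54 with TMM scaling, which subtracted a shift of -0.11 from every log2 ratio, 1.33 after thinning, 1.15 in cells failing only the mitochondrial maximum, 1.57 and 1.31 within lanes 1 and 2, and 1.52, 1.73, 1.60, 1.51, 0.48, 0.77 and 1.50 within plates 705, 706, 708, 709, 710, 711 and 712. Among cells at or above the median depth, a split chosen after seeing the data, it was 1.33. The Cdkn1c log2 ratio was below 0 under 22 of 23 alternatives and was 0.23 (-0.44 to 0.85) in cells failing only the mitochondrial maximum. That value uses total counts. On non-mitochondrial counts Cdkn1c in those cells was 36.4 CPM in fast 2A and 37.7 CPM in fast 2X. The cause of the difference from the filtered cells was not tested. The count of the 10 genes past 2-fold, 2 in the main analysis, was 1 after thinning, in cells failing only the mitochondrial maximum, within lane 1, within lane 2 and in cells below the median depth. In each of these 5 settings H19 alone reached 500 counts. The count of listed imprinted genes, also 2, was 1 in the same 5 settings, 4 with a minimum of 100 counts (Ndn and Zim1 added, named after seeing the values) and 13 with no minimum. The share over all genes was not computed at these lower minimums. The 13 include genes with few counts, such as Phlda2 with 1 and Ascl2 with 3. These counts therefore describe no trait of imprinted genes.

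The share of cells with a count fell on thinning from 99.4% to 94.7% for H19, from 57.9% to 20.5% for Igf2, from 72.5% to 36.3% for Meg3, from 53.2% to 14.0% for Rian, from 23.4% to 5.26% for Mirg, from 28.7% to 8.19% for Dlk1, from 58.5% to 18.7% for Cdkn1c, from 64.9% to 24.0% for Peg3, from 36.8% to 7.02% for Plagl1 and from 71.9% to 28.1% for Grb10. Within fast 2X cells alone the rho with H19 was 0.52 for Ldhb, 0.47 for Tnni1, 0.40 for Gm13599, 0.36 for Actn2, 0.39 for Myoz2, -0.40 for Cntnap2, -0.26 for Maf, -0.33 for Itpr1, -0.30 for Lrmda and -0.16 for Xpr1. Counts of genes past 2-fold were not run within plates, and a ratio of medians could not be formed where a class had a median of 0. The 95% counting limits of the class ratio included 0 for Igf2, Dlk1, Peg3 and Plagl1.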
